A study of Saccharomyces cerevisiae with 10 samples.

Results

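The comparison asked which RNAs responded differently to 2 kinds of damage to the yeast NuA4 complex: truncation of the subunit Epl1 and deletion of the subunit Eaf1. The truncation effect was the mean of strains Epl1 1:380 and Epl1 1:485 minus the strain with tagged, untruncated Epl1. The deletion effect was the eaf1 deletion minus the strain labelled Eaf1 1:982. The quantity described throughout is the truncation effect minus the deletion effect, computed for 6377 features from all 10 arrays of the series. A positive value means that the RNA stood higher, relative to its own control, in the truncations than in the deletion.

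NuA4 acetylates histones H4 and H2A in nucleosomes. Epl1 binds the catalytic subunit Esa1 together with Yng2 and Eaf6, and this smaller module, piccolo NuA4, can act on its own. Its C-terminal part joins the module to the rest of the complex, for which Eaf1 serves as the platform, so both kinds of mutant are known for separating piccolo NuA4 from the other subunits.

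Each array compared RNA of 1 strain of Saccharomyces cerevisiae with a common reference pool in 2 colours, and each strain had 2 arrays, a and b, which differed in dye orientation. The truncated strains carried FLAG-tagged Epl1 labelled 1:380 or 1:485, taken here as the first and last residue present, where EPL1 has 832 codons, and their control carried FLAG-tagged Epl1 with no truncation in its label. The deletion strain lacks EAF1. Its titles name an HA tag that its source label does not. Its control carries HA-tagged Eaf1 labelled as a C-terminal truncation 1:982, yet EAF1 has 982 codons, so the strain was treated as tagged full-length Eaf1. Cultures were described as mid-log. No label states that arrays a and b had different cultures as their source, and p-values therefore cover array-to-array spread only, possibly technical. Fewer cells of a state and less RNA per cell cannot be told apart in such bulk samples.

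Values are deposited log2 ratios of strain over pool, given for replicate a and then b. Median gene signal per array was 599.25 to 1054 in Cy5 and 278 to 555 in Cy3, against local background of 60 to 74 and 44 to 50. Some features described below were dim by mean log2 intensity over both channels, such as SIP18 (7.34), GRE1 (7.59) and THI4 (7.72). Others were AI3 and ATP8 (7.66 each), HXT5 (7.1) and SCAB001386 (6.77), where HSP26 stood at 10.06. How far background shaped the ratios of dim features was not tested. The number of arrays limits the precision: a difference of effects had a 95% interval of typically 0.17 on either side (median over features, log2 scale). Across features, r between replicates was 0.922 in Epl1 1:380, 0.922 in Epl1 1:485 and 0.875 in the deletion, against 0.678 in tagged Epl1 and 0.703 in Eaf1 1:982. RNA added in fixed amount stood at 0.09 to 0.19 in the 6 mutant arrays and at 0.159 to 0.545 in the 4 control arrays. In the difference of effects this shift was -0.01, made of 0.23 in replicates a and -0.25 in replicates b. Replicate b of Epl1 1:380 has an RNA isolation label equal to that of the pool and unlike those of the other strain samples.

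The targeted genes were examined first. EAF1 read -2.0 and -2.14 in the eaf1 deletion, against 0.74 and 0.54 in Eaf1 1:982. It read -0.13 and -0.25 in Epl1 1:380 and -0.09 and -0.27 in Epl1 1:485, against 0.15 and 0.11 in tagged Epl1. The deletion arrays lay far below the other 8, as the deletion label requires, and the EAF1 difference of effects (2.40 ± 0.07, SE) is therefore a check of the labels and not a response. EPL1 read 0.34 and 0.36 in Epl1 1:380 and 0.57 and 0.37 in Epl1 1:485, against -0.05 and -0.01 in tagged Epl1. In the deletion it read 1.06 and 1.14, against 0.59 and 0.58 in Eaf1 1:982. Both effects on EPL1 were positive and close in size (0.44 and 0.51), and their difference of -0.07 ± 0.09 did not pass the test (adjusted p = 0.6348, 95% interval -0.28 to 0.13). The closeness depends on the controls, which themselves differed by -0.62 at EPL1. Every truncation array lay above tagged Epl1 but none above Eaf1 1:982. Compared without controls, the truncations minus the deletion gave -0.69. The other 7 subunits listed, among them ESA1, YNG2 and TRA1, had differences of effects between -0.07 and 0.19. None was called, against 1.11% of all features, a share too small for 7 genes to show a lack of calls.

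A feature was called at a Benjamini-Hochberg adjusted p under 0.05 in limma and a fold over 1.7, which is 0.77 on the log2 scale. The difference of effects was called positive for 42 features and negative for 29. These are 0.659% and 0.455% of all features tested, 1.11% together, and 38 and 22 of them have a gene name. Without the fold limit, 360 features (5.65%) were positive and 361 (5.66%) negative. The truncation effect was called for 214 features (3.36%), of which 160 rose (2.51%) and 54 fell (0.847%). The deletion effect was called for 172 (2.7%), of which 132 rose (2.07%) and 40 fell (0.627%). The 2 controls, tagged Epl1 minus Eaf1 1:982, differed by no called feature, although 377 had an unadjusted p under 0.05 in limma and 15 an adjusted one, and the largest control difference of a called feature was 0.54. Compared directly, without controls, the mean of the truncations differed from the deletion by 44 features higher (0.69%) and 22 lower (0.345%), and this test called 29 of the 42 positive and 16 of the 29 negative features.

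**Figure D1:**
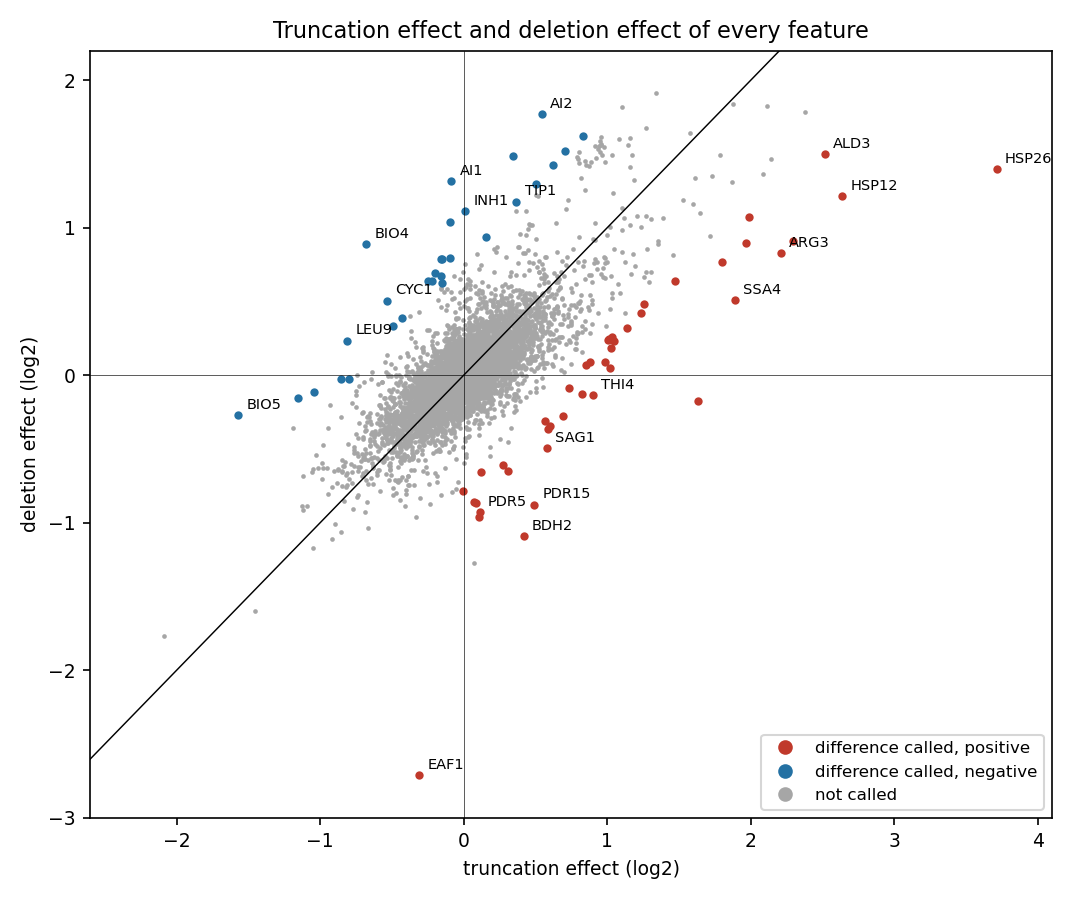
Truncation effect (x axis, log2) and deletion effect (y axis, log2) of all 6377 features; the diagonal marks equal effects. The 42 features with a positive called difference lie below and right of the diagonal and the 29 with a negative one above and left of it, with HSP26 at 3.71 and 1.40 and EAF1 at -0.31 and -2.71.

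Part of the response was shared. Across features, r between the effects was 0.749, and a line fitted through them had a slope of 0.691 for the deletion on the truncation effect. The effects rest on different strain and control arrays but on the same pool, and features are not independent, so no p is given. Of the 214 features called in the truncation effect, 97 were also called in the deletion effect, which is 97 of its 172, in the same direction in each case, and none was called in opposite directions. In 85 of the 97 both effects were rises and in 12 both were falls. The rises include many reporters without a gene name that had nearly alike effects, such as SCAB001109 (0.94 and 1.55) and SCAB004912 (0.95 and 1.51). Whether such reporters read separate RNAs is not known, so the 97 may hold fewer separate responses. For 54 of the 97 the 95% interval of the difference lay inside the fold limit on both sides, against 6119 of all 6377 features, and for 9 the difference was called.

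Examples with large effects and small differences, picked after their values were seen, follow. RIM4, a translational regulator of meiotic genes, read 1.93 and 2.05 in Epl1 1:380 and 1.94 and 1.86 in Epl1 1:485, against 0.06 and 0.07 in tagged Epl1. It read 2.15 and 1.92 in the deletion, against 0.25 and 0.14 in Eaf1 1:982. The rise was 1.88 in the truncations and 1.84 in the deletion, and the interval of the difference ran from -0.19 to 0.27. GPH1, glycogen phosphorylase, rose by 2.12 and 1.83 (difference 0.29, interval -0.01 to 0.60). YOL014W, a small reading frame of unknown function, fell in both, with effects of -1.45 and -1.60 (interval of the difference -0.001 to 0.29). ENB1, the transporter of the siderophore enterobactin, had effects of -2.09 and -1.77 (interval -0.68 to 0.04). PIR3, a cell wall protein, rose by 1.34 in the truncations and 1.91 in the deletion, and its difference of -0.57 passed the p limit (adjusted p = 0.002739) but not the fold limit.

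Of the 117 features called in the truncation effect alone, the difference itself was called for 23, and of the 75 called in the deletion effect alone, for 22. For the remaining 94 and 53, a call in one effect and not in the other did not come with a called difference. The 71 called differences fell into these classes: 9 with both effects called in the same direction, 23 with the truncation effect alone, 22 with the deletion effect alone, and 17 with neither effect past its own limits.

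Apart from EAF1, the largest positive difference belonged to HSP26, and several genes of the general stress response rose in both kinds of mutant but further in the truncations. HSP26, a small heat shock protein, read 3.61 and 3.23 in Epl1 1:380 and 3.25 and 3.42 in Epl1 1:485, against -0.22 and -0.45 in tagged Epl1. In the deletion it read 0.83 and 1.08, against -0.55 and -0.34 in Eaf1 1:982. The 4 truncation arrays stood above both deletion arrays, which stood above all 4 control arrays. HSP26 rose 13.1-fold in the truncations and 2.64-fold in the deletion, a difference of 2.31 ± 0.19 (adjusted p = 0.0004775).

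SSA4, an inducible Hsp70 chaperone, read 1.82 and 1.75 in Epl1 1:380 and 1.62 and 1.75 in Epl1 1:485, against 0.01 and -0.32 in tagged Epl1. Its values were 0.24 and 0.48 in the deletion, against -0.07 and -0.22 in Eaf1 1:982. The truncations rose 3.70-fold, while the deletion effect of 0.51 stayed under the fold limit, and the difference was 1.38 ± 0.15 (adjusted p = 0.001237). HSP12, a membrane-stabilising stress protein, rose by 2.64 in the truncations and 1.22 in the deletion. Its difference of 1.42 ± 0.28 (adjusted p = 0.01564) lost its call without replicate a of the deletion or of Eaf1 1:982 (adjusted p up to 0.07945), with a value of 0.997 to 1.84 over all single arrays left out.

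ALD3, an aldehyde dehydrogenase with a near-identical neighbour, ALD2, rose 5.72-fold in the truncations and 2.82-fold in the deletion (difference 1.02 ± 0.15). PGM2, the phosphoglucomutase on the path to glycogen and trehalose, rose 3.97-fold and 2.11-fold (0.91 ± 0.11). MSC1, which is named for an effect on meiotic recombination, rose by 1.97 and 0.90 (1.07 ± 0.14). The hydrophilins SIP18 and GRE1, which protect proteins during drying, rose by 2.29 and 0.91 and by 1.80 and 0.77, with differences of 1.39 ± 0.17 and 1.03 ± 0.18. The GRE1 call ended without replicate b of Eaf1 1:982 (adjusted p = 0.05172). SPI1, a cell wall protein induced by weak acids, rose by 1.02 in the truncations, against a deletion effect of 0.05 (0.97 ± 0.13).

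As a list, 72 genes known to respond to the factors Msn2 and Msn4, which drive the general stress programme, were measured. Their difference of effects was called positive for 12 and negative for 0, against 0.659% of all features positive, and 31 passed without the fold limit, all positive, against 5.65%. Of the 72, 60 had a positive difference. The median was 0.31, against -0.001 over all features, and stayed between 0.27 and 0.38 whichever array was left out. The median truncation effect of the list was 0.91 (40 rose, 0 fell) and the median deletion effect 0.63 (23 rose, 1 fell). On single arrays the list's median was 1.10 and 0.88 in Epl1 1:380 and 0.77 and 0.79 in Epl1 1:485, against 0.06 and -0.03 in tagged Epl1. The deletion arrays gave 0.55 and 0.68, against 0.14 and 0.07 in Eaf1 1:982. The truncation arrays thus stood above the deletion arrays and the controls below both.

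The other called members were TFS1, an inhibitor of carboxypeptidase Y, DCS2, FMP16, the mitochondrial disaggregase HSP78 and the glutathione transferase GTT1. With ratios made anew by normexp, DCS2 lost its call (0.76). GTT1 differed in kind from the rest: its truncation effect was 0.12 and its deletion effect -0.65 (difference 0.78 ± 0.12). Its call was lost with print-tip loess (0.73) and on leaving out any 1 of 5 arrays. HSP78 read 0.44 and 0.37 in Epl1 1:380 and 0.19 and 0.25 in Epl1 1:485, against -0.26 and -0.58 in tagged Epl1, and its difference of 0.82 ± 0.18 was likewise lost on leaving out any 1 of 5 arrays. Stress genes whose difference passed the p limit and not the fold limit included CTT1, the cytosolic catalase, at 0.68 ± 0.13. HXK1, a hexokinase repressed by glucose, had a difference of 0.59 ± 0.20 that did not pass the test (adjusted p = 0.09747) beside rises of 2.38 and 1.79.

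Chaperones as a list held 27 measured genes, with 3 called positive (HSP26, SSA4 and HSP78), none negative, against 0.659% of all features positive. Their median was 0.22 and ran from 0.12 to 0.37 with 1 array left out. Trehalose and glycogen genes held 22, with PGM2 the called one, against the same 0.659%, and a median of 0.12 that ran from 0.11 to 0.21 with 1 array left out. The called genes of both lists are among the called stress genes above, so they are not further calls. HXT5, a hexose transporter made at slow growth, had a difference of 0.78 ± 0.13, and CIT2, the peroxisomal citrate synthase, one of 0.79 ± 0.12. The call of HXT5 was lost on leaving out any 1 of 4 arrays and that of CIT2 on leaving out replicate a of tagged Epl1 or of Eaf1 1:982. With normexp both fell short of the fold limit (0.70 and 0.73), and CIT2 did so with print-tip loess (0.70). Markers of another growth state of the culture, the diauxic shift and stationary phase, leaned in the same direction. Of 16 such markers, SIP18 was called, against 0.659% of all features positive. A positive difference was found in 14 of them, against 3162 of all 6377 features, and the median of the markers was 0.18. Their median level ran from 0.17 to 0.35 on the truncation arrays, against 0.01 and 0.03 in tagged Epl1, and was 0.14 and 0.10 in the deletion, against 0.03 and 0.01 in Eaf1 1:982. The gluconeogenic marker FBP1 had a difference of -0.09 and the glyoxylate marker ICL1 one of -0.05. Their part in the stress gene result was not tested.

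**Figure D2:**
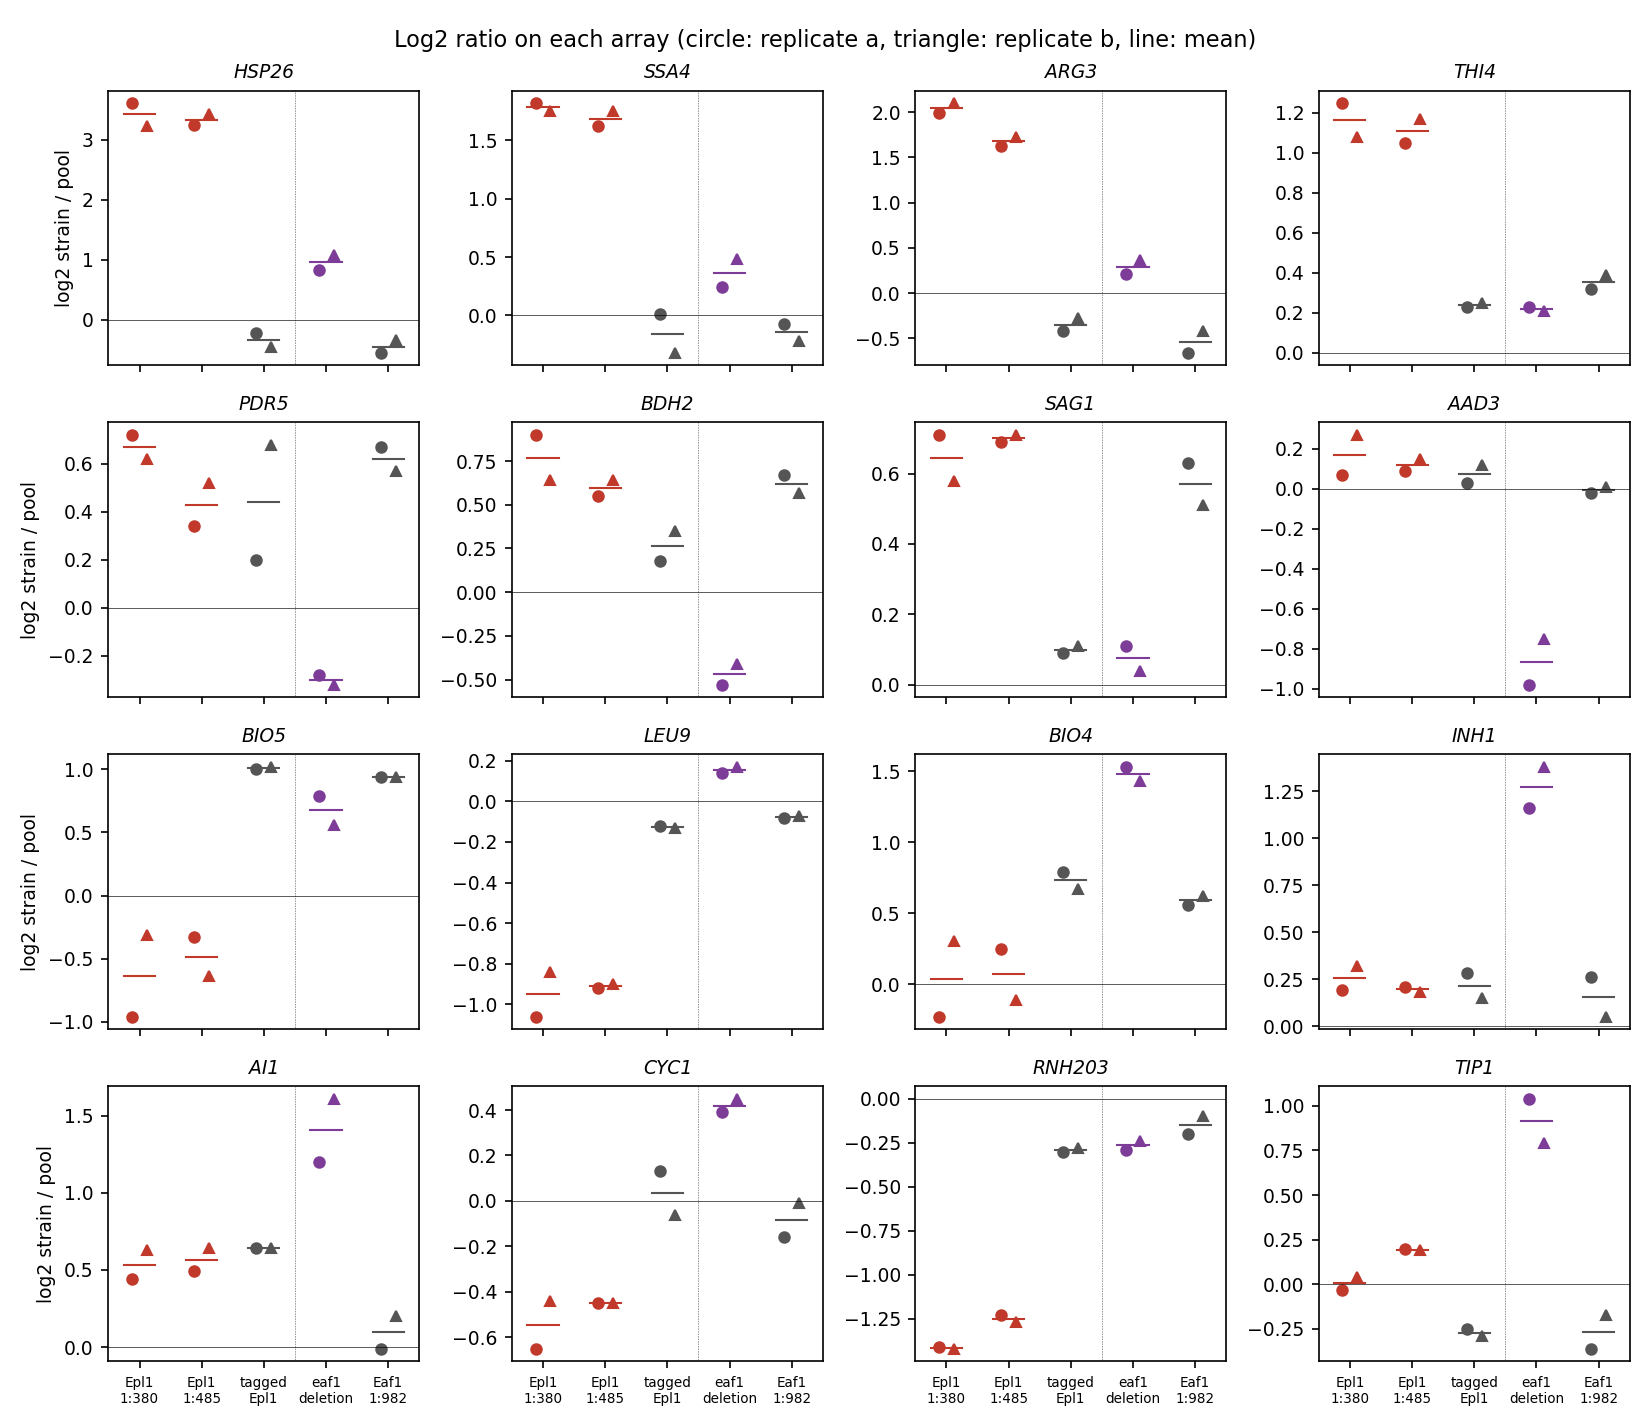
Log2 ratio of strain over pool on each array for 16 genes with a called difference of effects (y axes differ between panels; circle, replicate a; triangle, replicate b; line, mean of 2 arrays). HSP26, SSA4, ARG3 and THI4 stand high in both truncations, PDR5, BDH2 and AAD3 stand low in the deletion, and INH1, AI1 and TIP1 stand high in the deletion.

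Among genes of arginine synthesis, ARG3 had a large difference with a small error. ARG3, ornithine carbamoyltransferase, read 1.99 and 2.1 in Epl1 1:380 and 1.63 and 1.72 in Epl1 1:485, against -0.42 and -0.28 in tagged Epl1. It read 0.21 and 0.37 in the deletion, against -0.66 and -0.42 in Eaf1 1:982. The groups did not overlap, and ARG3 rose 4.63-fold in the truncations and 1.77-fold in the deletion (difference 1.38 ± 0.07, adjusted p = 2.081e-05). CPA1, the small subunit of the carbamoyl phosphate synthetase that feeds ARG3, rose by 0.82 in the truncations, against a deletion effect of -0.13 (0.95 ± 0.08). YOR302W, the leader reading frame upstream of CPA1 on the same RNA, differed by 0.77 ± 0.10, and its call was lost on leaving out any 1 of 5 arrays and with normexp (0.70).

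The pathway had no common direction. Of 14 measured genes of arginine synthesis, breakdown and uptake, those 2 were called, against 0.659% of all features positive. The median difference was -0.05 and ran from -0.13 to 0.03 with 1 array left out. Past the p limit but not the fold limit, ARG1 stood at 0.50 and ARG8 at 0.33, while CAR1, the arginase, stood at -0.53 and ARG80, a regulator of the pathway, at -0.58. Of 58 genes for other amino acids, 48 had a negative difference, and the median was -0.14. Past the p limit were 12, all negative, against 5.66% of all features. LEU9, an isopropylmalate synthase of leucine synthesis, was the called one. It read -1.06 and -0.84 in Epl1 1:380 and -0.92 and -0.90 in Epl1 1:485, against -0.12 and -0.13 in tagged Epl1, and 0.14 and 0.17 in the deletion, against -0.08 and -0.07 in Eaf1 1:982. LEU9 fell by 0.81 in the truncations, and its difference was -1.04 ± 0.08 (adjusted p = 0.0004775). LEU1, the next enzyme, had a difference of -0.65 ± 0.08, short of the fold limit.

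Vitamin genes moved in opposite directions. THI4, which makes the thiazole part of thiamine, read 1.25 and 1.08 in Epl1 1:380 and 1.05 and 1.17 in Epl1 1:485, against 0.23 and 0.25 in tagged Epl1. Its deletion values of 0.23 and 0.21 lay close to the 0.32 and 0.39 of Eaf1 1:982. The difference was 1.03 ± 0.09 (adjusted p = 0.0005033), and THI4 rose by 0.90 in the truncations beside a deletion effect of -0.13.

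Biotin genes, by contrast, had negative differences. BIO5, the transporter of biotin precursors, read -0.96 and -0.31 in Epl1 1:380 and -0.33 and -0.64 in Epl1 1:485, against 1.0 and 1.02 in tagged Epl1. It read 0.79 and 0.56 in the deletion, against 0.94 and 0.94 in Eaf1 1:982. BIO5 fell 2.97-fold in the truncations, with a deletion effect of -0.27, and its difference was -1.302 ± 0.243 (adjusted p = 0.01181).

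BIO4, dethiobiotin synthetase, read -0.23 and 0.30 in Epl1 1:380 and 0.25 and -0.11 in Epl1 1:485, against 0.79 and 0.67 in tagged Epl1. The deletion stood at 1.53 and 1.43, against 0.56 and 0.62 in Eaf1 1:982. BIO4 thus rose 1.85-fold in the deletion beside a truncation effect of -0.68, and the difference of -1.57 ± 0.22 (adjusted p = 0.003322) was the most negative of any feature. BIO3, the aminotransferase of the same pathway, had effects of -1.15 and -0.16 (difference -0.99 ± 0.21). The calls of BIO5 and BIO3 were lost without replicate b of tagged Epl1 or either array of Eaf1 1:982, that of BIO3 also without replicate a of tagged Epl1 or of the deletion. BIO2, biotin synthase, had a difference of -0.54 ± 0.11 that passed the p limit alone. Over all 29 vitamin genes 1 was called positive and 3 negative, against 0.659% and 0.455% of all features.

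A second class of positive differences came from genes that stood low in the deletion. PDR5, a drug efflux pump of the plasma membrane, read 0.72 and 0.62 in Epl1 1:380 and 0.34 and 0.52 in Epl1 1:485, against 0.20 and 0.68 in tagged Epl1. It read -0.28 and -0.32 in the deletion, against 0.67 and 0.57 in Eaf1 1:982. The truncations overlapped their control, the deletion lay below every other array, and PDR5 fell 1.90-fold there (difference 1.04 ± 0.17, adjusted p = 0.006281). PDR15, a pump close in sequence to PDR5, fell by 0.88 in the deletion beside a truncation effect of 0.49 (1.36 ± 0.17). Of their relatives, SNQ2 had a difference of 0.37 and PDR10 of 0.07, and neither passed the test; these 2 were picked after their values were seen.

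BDH2, a dehydrogenase related to butanediol dehydrogenase, read 0.90 and 0.64 in Epl1 1:380 and 0.55 and 0.64 in Epl1 1:485, against 0.18 and 0.35 in tagged Epl1. It read -0.53 and -0.41 in the deletion, against 0.67 and 0.57 in Eaf1 1:982. BDH2 fell 2.13-fold in the deletion and its difference was 1.51 ± 0.13 (adjusted p = 0.0004775). BDH1, its paralog and chromosomal neighbour, had a difference of -0.47 ± 0.08.

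AAD3 and AAD15 are aryl-alcohol dehydrogenases from a family of close copies. AAD3 read 0.07 to 0.27 on the truncation arrays, against 0.03 and 0.12 in tagged Epl1, and -0.98 and -0.75 in the deletion, against -0.02 and 0.01 in Eaf1 1:982. AAD15 read 0.01 to 0.15 on the truncation arrays, against 0.05 and 0.16 in tagged Epl1, and -0.81 and -0.80 in the deletion, against -0.05 and 0.02 in Eaf1 1:982. Both fell in the deletion alone, and their differences were 0.93 ± 0.08 and 0.78 ± 0.07. The call of AAD15 was lost on leaving out any 1 of 4 arrays and with print-tip loess (0.70). The family had 6 measured members, with 2 called positive, against 0.659% of all features. Their differences were positive in 3 and negative in 3, with a median of -0.02. Of the other 4 measured members none was called, and AAD10 had a difference of -0.45. Probes of close copies may read each other's RNA, so the sources of the AAD signals cannot be told apart.

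Iron genes added FIT3, a cell wall mannoprotein that retains siderophores, and TIS11, which binds and destabilises mRNAs when iron is scarce. TIS11 fell by 0.87 in the deletion beside a truncation effect of 0.09 (difference 0.95 ± 0.21), and FIT3 had effects of 0.31 and -0.65 (0.96 ± 0.21). Both calls were lost without replicate a of tagged Epl1 or either array of Eaf1 1:982, and that of TIS11 also without replicate a of the deletion. FIT2, a relative of FIT3 named after its values were seen, had the largest uncalled difference of the list, 1.35 ± 0.38 (adjusted p = 0.0565), with 0.42, -0.67, -0.51 and -0.29 on the truncation arrays. Over 27 iron genes 2 were called, against 0.659% of all features positive. The median difference was 0.13 and ran from 0.002 to 0.28 with 1 array left out.

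Mating genes stood higher in the truncations in 19 of 21 cases, with 3 called positive, against 0.659% of all features, none negative and a median of 0.22. SAG1, the alpha-agglutinin of the cell surface, read 0.71 and 0.58 in Epl1 1:380 and 0.69 and 0.71 in Epl1 1:485, against 0.09 and 0.11 in tagged Epl1. It read 0.11 and 0.04 in the deletion, against 0.63 and 0.51 in Eaf1 1:982. Here the controls themselves differed, by -0.47, with tagged Epl1 near the deletion and Eaf1 1:982 near the truncations, and the difference of effects was 1.07 ± 0.07 (adjusted p = 0.000252). Compared without controls, the truncations stood 0.60 above the deletion. AGA1, the anchor of a-agglutinin, had effects of 0.27 and -0.61 (0.88 ± 0.09), and MFA1, which encodes the a-factor pheromone, rose by 1.004 in the truncations beside 0.24 in the deletion (0.77 ± 0.08). The MFA1 value lies at the fold limit and its call was lost on leaving out any 1 of 5 arrays. That call was also lost with normexp (0.74), print-tip loess (0.75) and median centring. MFA1 was dim, with a mean log2 intensity over both channels of 7.38, against 12.42 for SAG1. The alpha-factor genes MF(ALPHA)1 and MF(ALPHA)2, picked after their values were seen, rose in both kinds of mutant. MF(ALPHA)1 rose by 1.30 in the truncations and 1.06 in the deletion, and MF(ALPHA)2 by 1.21 and 1.08. Neither difference was called.

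**Figure D3:**
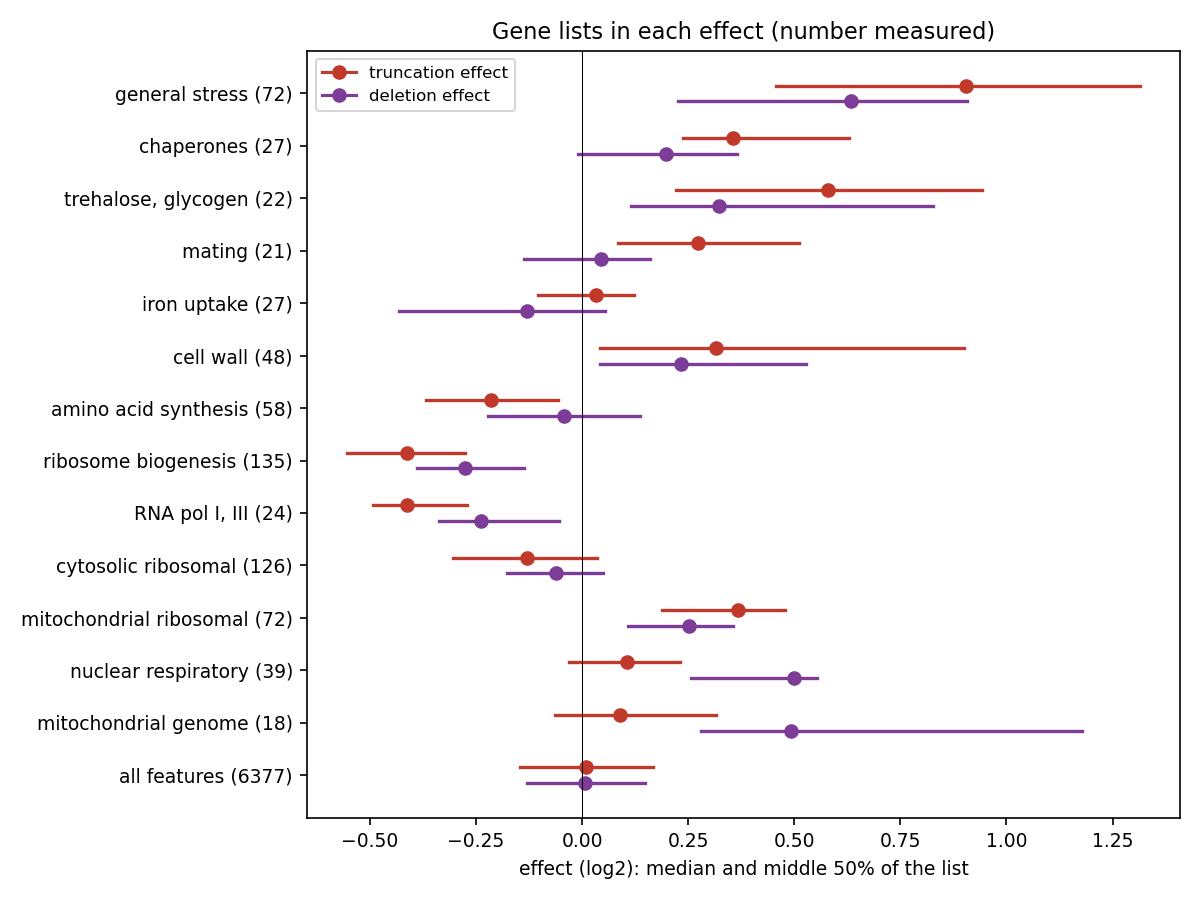
Median (point) and middle 50% (line) of the truncation effect and the deletion effect over the members of 13 gene lists and over all features, on the log2 scale, with the number measured in parentheses. The nuclear respiratory genes (0.11 and 0.50) and the genes of the mitochondrial genome (0.09 and 0.49) stand higher in the deletion, and general stress genes (0.91 and 0.63) in the truncations.

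Respiratory genes stood higher in the deletion. Nuclear genes of the respiratory chain and ATP synthase numbered 39, of which 36 had a negative difference. At the p limit alone, 23 were negative and 0 positive, against 5.66% of all features negative. Their median truncation effect was 0.11 and their median deletion effect 0.50, with 5 rises called in the deletion and 0 in the truncations. The list's median read 0.27 and 0.27 in Epl1 1:380 and 0.25 and 0.21 in Epl1 1:485, against 0.16 and 0.09 in tagged Epl1. It read 0.51 and 0.57 in the deletion, against 0.09 and 0.10 in Eaf1 1:982. The deletion arrays stood above all others, and the median difference of -0.37 stayed between -0.40 and -0.32 whichever array was left out.

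CYC1, the main isoform of cytochrome c, was the called member. It read -0.65 and -0.44 in Epl1 1:380 and -0.45 and -0.45 in Epl1 1:485, against 0.13 and -0.06 in tagged Epl1, and 0.39 and 0.45 in the deletion, against -0.16 and -0.01 in Eaf1 1:982. Its effects of -0.54 and 0.51 pointed in opposite directions, each short of the fold limit, and the difference was -1.04 ± 0.11 (adjusted p = 0.001216). CYC7, the isoform made at low oxygen, had a difference of 0.03 ± 0.09. QCR9, a small subunit of the cytochrome bc1 complex, rose by 0.82 in the deletion beside a truncation effect of 0.09, and its difference of -0.73 ± 0.07 passed the p limit alone.

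INH1, the peptide that inhibits the mitochondrial ATP synthase, read 0.19 and 0.32 in Epl1 1:380 and 0.21 and 0.18 in Epl1 1:485, against 0.28 and 0.15 in tagged Epl1. It read 1.16 and 1.38 in the deletion, against 0.26 and 0.05 in Eaf1 1:982. The truncations overlapped their control, while INH1 rose 2.16-fold in the deletion (difference -1.10 ± 0.13, adjusted p = 0.001517).

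Genes of the mitochondrial genome followed the same direction, with 17 of 18 negative and 5 called negative, against 0.455% of all features. Their median was -0.45 and ran from -0.57 to -0.35 with 1 array left out. The 5 called were AI1, AI2, AI3, AI5_ALPHA and ATP8. All but ATP8 lie within introns of COX1, so the 5 calls may come from fewer separate RNAs. Whether ATP8 shares an RNA with the others was not tested. Over all 19 measured features of that genome, the median was -0.43, while the medians of the nuclear chromosomes lay between -0.006 and 0.046. The largest values belonged to reading frames within introns of COX1, which encode splicing factors and endonucleases. AI1 read 0.44 and 0.63 in Epl1 1:380 and 0.49 and 0.64 in Epl1 1:485, against 0.64 and 0.64 in tagged Epl1. It read 1.20 and 1.61 in the deletion, against -0.01 and 0.20 in Eaf1 1:982. AI1 rose 2.49-fold in the deletion and its difference was -1.40 ± 0.11 (adjusted p = 0.0004775). Its controls differed by 0.54, the largest control difference of any called feature.

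AI2 rose by 1.77 in the deletion beside a truncation effect of 0.55 (-1.23 ± 0.15), and AI3 by 1.49 beside 0.34 (-1.14 ± 0.12). AI5_ALPHA, with effects of 0.71 and 1.52, was called as well (-0.81 ± 0.09), while COX1 itself had a difference of -0.43 ± 0.11. Intron frames overlap their host gene, so their signals are not independent. ATP8, a subunit of the ATP synthase membrane part, rose by 1.04 in the deletion beside -0.09 (-1.14 ± 0.18), and its deletion replicates were 0.66 and 1.30. COB and COX2, made in the same organelle, had differences of 0.06 and -0.12.

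**Figure D4:**
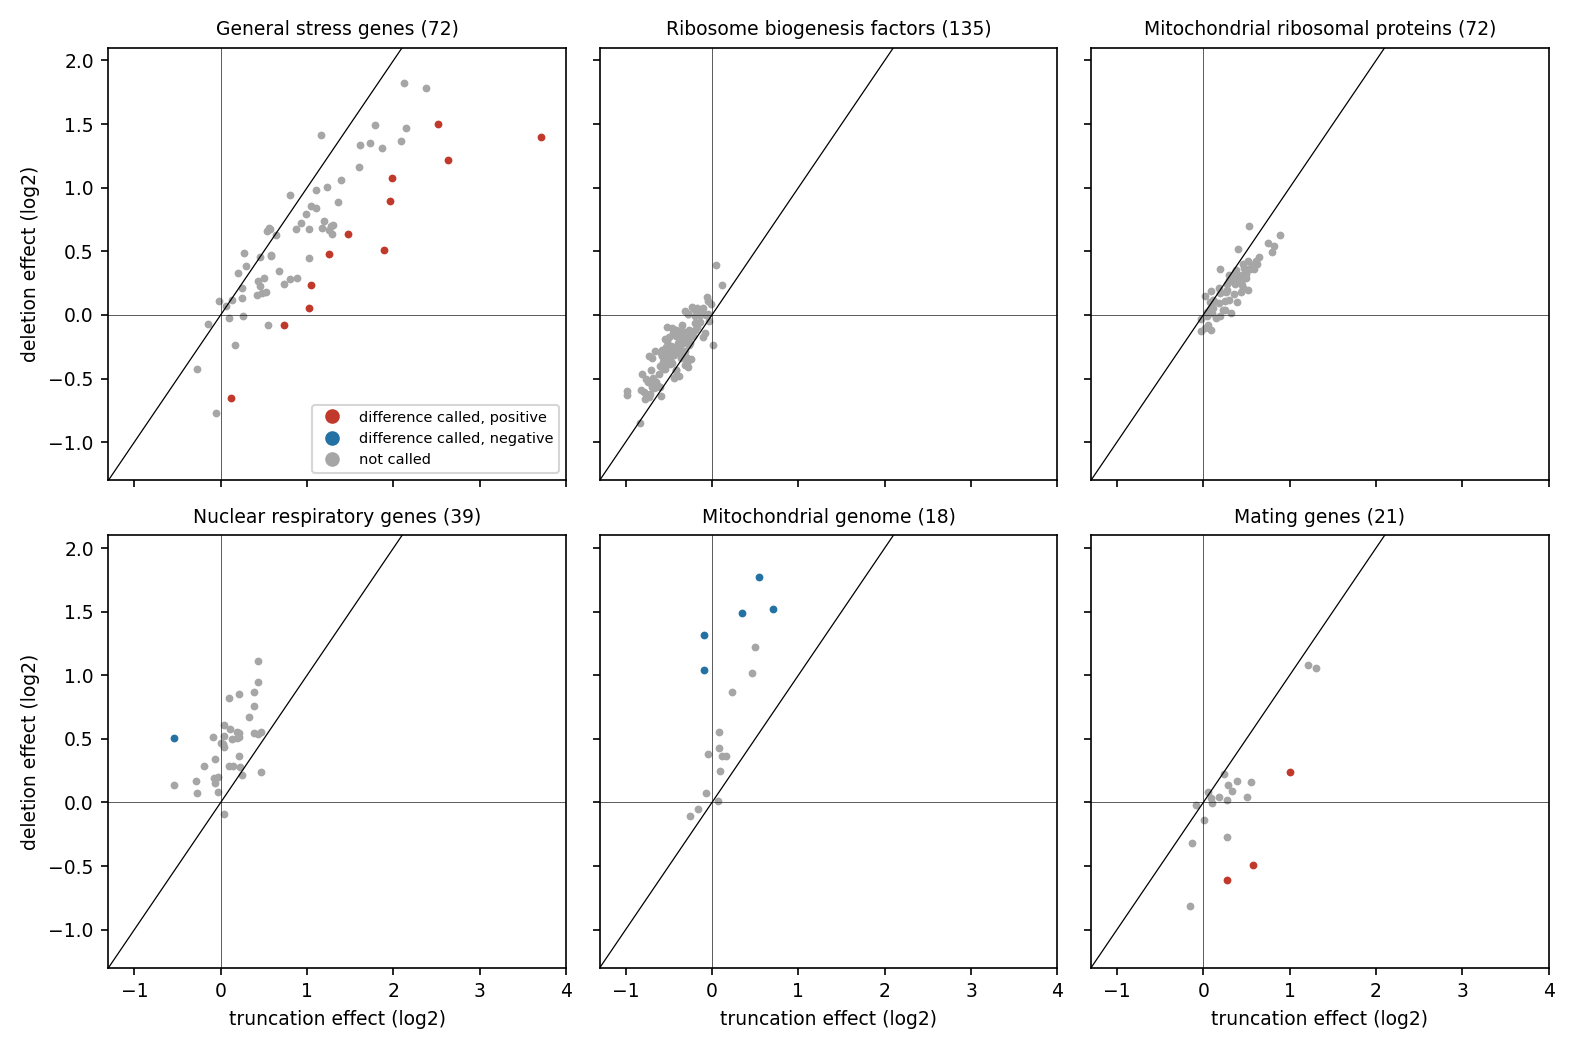
Truncation effect (x axis, log2) and deletion effect (y axis, log2) of each member of 6 gene lists, with the diagonal of equal effects. Stress genes lie mostly right of the diagonal (60 of 72), respiratory genes (36 of 39) and mitochondrial genes (17 of 18) left of it, and ribosome biogenesis factors left of it with both effects mostly below 0.

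Genes of ribosome synthesis had slightly lower effects in the truncations. Of 135 processing and assembly factors, 116 had a negative difference and 17 passed the p limit alone, all negative, against 5.66% of all features, with 0 called. The medians were -0.41 in the truncations and -0.28 in the deletion, a median difference of -0.15 that stayed between -0.17 and -0.12 whichever array was left out. Subunits of RNA polymerases I and III had a negative difference in 23 of 24 cases, 7 past the p limit against the same 5.66%, with RPA14 of polymerase I lowest at -0.64 ± 0.11. NAN1, a part of the small subunit processome, stood at -0.42 ± 0.07. The 126 genes of cytosolic ribosomal proteins had a median difference of -0.12, which ran from -0.16 to -0.05 with 1 array left out. They had 0 calls, against 0.659% of all features positive and 0.455% negative. On the truncation arrays their median level was -0.21 and -0.20 in replicates a but 0.03 and -0.04 in replicates b.

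Mitochondrial ribosomal protein genes had differences of the opposite sign to the respiratory chain. Of 72, 63 had a positive difference and the median was 0.13, with medians of 0.37 in the truncations and 0.25 in the deletion. Only 1 passed the p limit, as positive, against 5.65% of all features, and 0 were called. Histone genes had a positive difference in 10 of 10 cases with a median of 0.14, none past the p limit, against the same 5.65%. COS, PAU and YRF1 genes of the chromosome ends had a median of 0.20 over 28 genes, with 12 past the p limit as positive and 1 as negative, against 5.65% and 5.66% of all features, and 0 called. COS8 stood at 0.38 ± 0.07.

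Some other reading frames near chromosome ends had negative differences. YJL225C, YFL064C and YHL049C, which lie in repeated subtelomeric elements, had differences of -0.90 ± 0.09, -0.89 ± 0.07 and -0.85 ± 0.09. YFL064C read -0.43 and -0.53 in Epl1 1:380 and -0.51 and -0.56 in Epl1 1:485, against -0.38 and -0.45 in tagged Epl1, and 0.32 and 0.17 in the deletion, against -0.45 and -0.66 in Eaf1 1:982. The deletion alone stood apart, with a rise of 0.80. These frames have near-identical copies, so 1 source may stand behind all 3 probes, and which copies were read is not known. Called negative without a gene name, SCAB002626, SCAB001866, SCAB004361, SCAB006354 and SCAB004359 read much alike, and were picked after their values were seen. SCAB004361 read 0.57 and 0.13 in the deletion, where YJL225C read 0.57 and 0.15. The 29 negative calls may therefore hold fewer separate responses.

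Cell wall genes showed no common direction: of 48, 23 were positive and 25 negative. GSC2, a glucan synthase made under stress, and CWP2, a mannoprotein, rose by 1.14 and 1.23 in the truncations beside deletion effects of 0.32 and 0.42 (differences 0.82 ± 0.08 and 0.81 ± 0.08). TIP1, a mannoprotein induced by cold, read -0.03 and 0.04 in Epl1 1:380 and 0.20 and 0.19 in Epl1 1:485, against -0.25 and -0.29 in tagged Epl1. It read 1.04 and 0.79 in the deletion, against -0.36 and -0.17 in Eaf1 1:982, a rise of 1.18 there and a difference of -0.81 ± 0.12. The value of CWP2 was 0.46 when ratios were made anew from the scanner intensities, and its call and that of GSC2 were lost there.

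Among the remaining called genes, RNH203, a subunit of RNase H2, read -1.41 and -1.42 in Epl1 1:380 and -1.23 and -1.27 in Epl1 1:485, against -0.30 and -0.28 in tagged Epl1. The deletion read -0.29 and -0.24, against -0.20 and -0.10 in Eaf1 1:982. RNH203 fell 2.06-fold in the truncations, and the difference was -0.93 ± 0.07 (adjusted p = 0.0003315). SWM1, a subunit of the anaphase-promoting complex, fell by 0.86 in the truncations beside a deletion effect of -0.03 (-0.83 ± 0.08). PHO3, an acid phosphatase, had effects of -0.49 and 0.34 (-0.83 ± 0.11), while PHO84, the high-affinity phosphate transporter, had a difference of -0.66 ± 0.11 and a control difference of 0.53. NCE103, the carbonic anhydrase, VID24, which targets gluconeogenic enzymes for breakdown, and SIP5 had effects of opposite sign, neither past its limits, and called positive differences. The call of SIP5 was lost with normexp (0.73). Of the 11 called reporters without a gene name, SCAB001386 had the largest difference, 1.81 ± 0.07, with 1.57 to 1.72 on the truncation arrays, against 0.07 and -0.04 in tagged Epl1. The deletion read -0.01 and -0.19 there, against 0.16 and -0.01 in Eaf1 1:982.

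Each truncation was also set alone against the deletion. With Epl1 1:380 in place of the mean, 48 features were called positive (0.753%) and 28 negative (0.439%), or 1.19% in all, and with Epl1 1:485, 31 and 31 (0.486% each). Of the 71 called features, 51 were called with each. These 2 comparisons share all control and deletion arrays. ARG3 had values of 1.57 with Epl1 1:380 and 1.20 with Epl1 1:485, MSC1 of 1.23 and 0.91, and BIO4 of -1.58 and -1.55.

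Replicates a and b each give the difference of effects once. Its sign was the same in both for all 71 called features, which the test itself favours, and r between a and b over all features was 0.736. For EAF1 the values were 2.48 in a and 2.31 in b, for HSP26 2.27 and 2.35, for BDH2 1.74 and 1.28, for BIO4 -1.75 and -1.38, and for PDR5 1.29 and 0.79. Of the 71 calls, 40 held whichever array was left out, 23 positive and 17 negative. They include HSP26, ARG3, SSA4, BDH2, PDR5, PDR15, SAG1, THI4, CPA1 and AAD3 among the positive ones, and BIO4, AI1, AI2, INH1, LEU9, CYC1 and RNH203 among the negative ones.

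Several calls of genes described here depended on single arrays. Without replicate a of Epl1 1:380, the calls of DCS2, HSP78, AAD15, GTT1, HXT5, MFA1 and YOR302W were lost, those of MFA1 and YOR302W without replicate a of Epl1 1:485, and those of AAD15, GTT1 and HXT5 without its replicate b. Leaving out replicate a of the deletion ended the calls of HSP12, TIS11, TFS1, DCS2, HSP78, CWP2, FMP16, GTT1, HXT5, MFA1, TIP1, PHO3 and BIO3, and replicate b those of GSC2, AAD15, YOR302W and AI5_ALPHA. For tagged Epl1, the calls lost were FIT3, TIS11, NCE103, CIT2, AAD15, MFA1, YOR302W, AI5_ALPHA and BIO3 without replicate a, and TFS1, GSC2, HSP78, CWP2, GTT1, BIO3 and BIO5 without replicate b. For Eaf1 1:982, they were HSP12, FIT3, TIS11, HSP78, CIT2, FMP16, YOR302W, TIP1, BIO3 and BIO5 without replicate a, and GRE1, FIT3, TIS11, HSP78, GTT1, HXT5, MFA1, YHL049C, BIO3 and BIO5 without replicate b. All of these kept their sign.

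**Figure D5:**
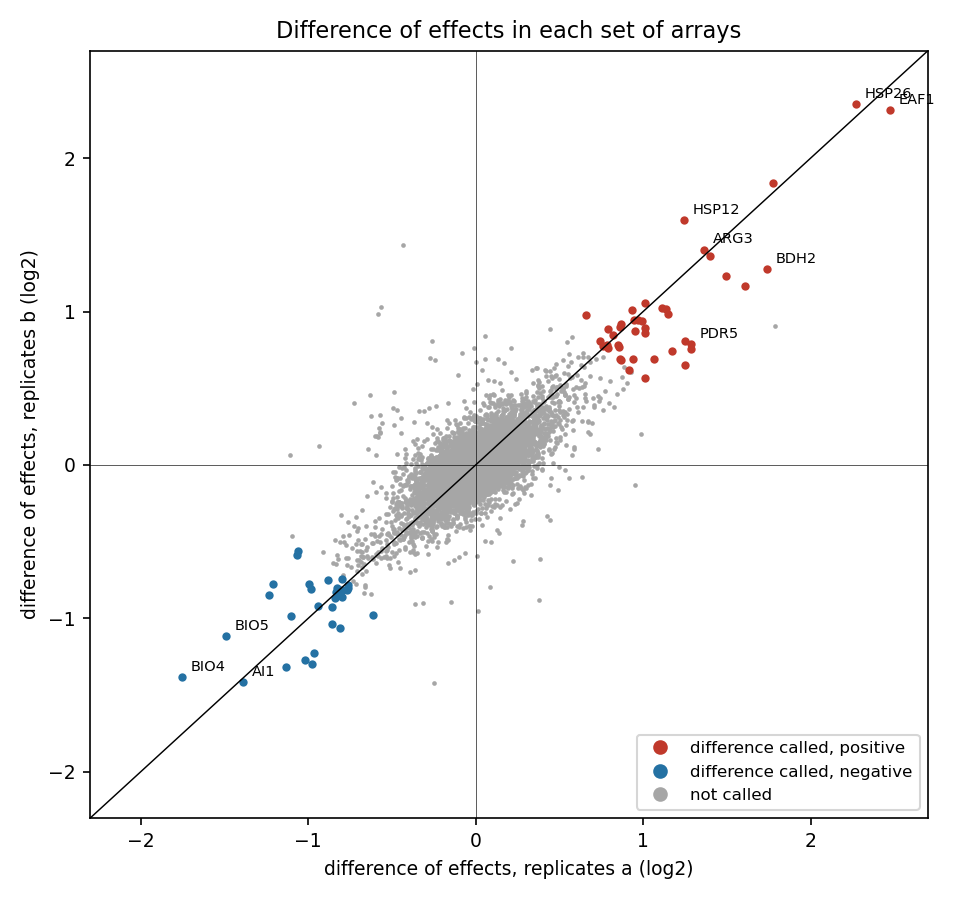
Difference of effects in replicates a (x axis, log2) and in replicates b (y axis, log2) for all 6377 features, with the diagonal of equal values. Called features keep their sign in both, from HSP26 (2.27 and 2.35) to BIO4 (-1.75 and -1.38).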

How the data were processed

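RNA of 5 strains was set against a reference pool on 10 arrays. Per the labels, 1 channel held the strain and the other the pool. Per the deposited protocol text, the authors scanned the arrays, normalised log2 ratios of Cy5 over Cy3 by print-tip loess (span 0.4, background left in), and corrected gene-specific dye bias. The deposited raw files hold the intensity of each spot in both channels. The fit used the deposited log2 ratios. Columns of replicate a were multiplied by -1, so that each value is strain over pool, and spots of one gene symbol were averaged, which left 6377 features (12776 of 15552 spots per array, the others being controls). A RefSeq gene table of assembly R64 held 5255 of the 5315 gene names as symbols and 58 as synonyms, and was used for names, codon counts and chromosomes alone. Promoters and proteins were not analysed here.

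One model over all 10 arrays, with a coefficient per strain and the replicate letter as a block, was run in R 4.3.3 through lmFit and eBayes of limma 3.58.1 (4 residual and 4.80 prior degrees of freedom), and p-values were adjusted by Benjamini-Hochberg over all features. The study's own limits, per the series' design text, were an unadjusted p under 0.01 and a fold over 1.7. Deviations of arrays with the same letter correlated between strains by 0.294 to 0.563 in all 10 pairs of strains, so the letter, which is the dye orientation, was kept as a block. Gene lists were described by counts and medians, without a test. Members, lists and alternatives were chosen with earlier results of these data known. The rule for naming genes took EAF1, EPL1 and the NuA4 subunits, the 15 largest called differences of named genes in each direction with the same sign in a and b, and up to 4 called genes per list, or the 2 with the largest difference where fewer than 2 were called. Named outside that rule, after their values were seen, were RIM4, GPH1, YOL014W, ENB1, PIR3, TFS1, DCS2, FMP16, FBP1, ICL1, YOR302W, ARG1, ARG8, CAR1, ARG80, BIO2, SNQ2, PDR10, BDH1, AAD10, FIT2, CYC7, COX1, COX2, COB, AI5_ALPHA, NCE103, VID24, SIP5 and SCAB001386. SCAB002626, SCAB001866, SCAB004361, SCAB006354, SCAB004359, MF(ALPHA)1 and MF(ALPHA)2 were named in the same way. The steps were tested on simulated data. Alternatives were no block, intensities normalised anew (normexp with offset 50 and loess of span 0.3, or print-tip loess), other centrings, brighter features, medians of spots, eBayes with trend and robust, other limits, each truncation alone and each array left out. Figures were drawn with Python 3.11.15.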

Additional observations from a re-analysis of the deposited data

Results flagged for a closer look

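Of the 60 called features with a gene name, the 46 below are those taken by the rule for naming genes; for these the truncation and deletion effects differed by limma's test of the difference itself, at a Benjamini-Hochberg adjusted p under 0.05 and a fold over 1.7. Values are the difference of effects on the log2 scale. The other called genes are not listed here. No single array could be tested as standing apart, since each strain had 2 arrays.

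Among stress and chaperone genes the values were 2.31 for HSP26, 1.42 for HSP12, 1.39 for SIP18, 1.38 for SSA4, 1.07 for MSC1, 1.03 for GRE1, 1.02 for ALD3, 0.97 for SPI1, 0.91 for PGM2, 0.82 for HSP78 and 0.78 for GTT1. Arginine, thiamine and carbon metabolism gave 1.38 for ARG3, 0.95 for CPA1, 1.03 for THI4, 0.79 for CIT2 and 0.78 for HXT5. Genes that stood low in the deletion gave 2.40 for EAF1, 1.51 for BDH2, 1.36 for PDR15, 1.04 for PDR5, 0.93 for AAD3 and 0.78 for AAD15. Iron genes gave 0.96 for FIT3 and 0.95 for TIS11, and mating genes 1.07 for SAG1, 0.88 for AGA1 and 0.77 for MFA1. The cell wall genes GSC2 and CWP2 gave 0.82 and 0.81, and TIP1 gave -0.81.

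Negative values were -1.57 for BIO4, -1.302 for BIO5 and -0.99 for BIO3. Mitochondrial and respiratory genes gave -1.40 for AI1, -1.23 for AI2, -1.14 for AI3, -1.14 for ATP8, -1.10 for INH1 and -1.04 for CYC1. The remaining ones were -1.04 for LEU9, -0.93 for RNH203, -0.90 for YJL225C, -0.89 for YFL064C, -0.85 for YHL049C, -0.83 for SWM1 and -0.83 for PHO3.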

How the results depend on the processing

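Counts of positive and negative calls were 22 and 12 in the brighter part of the features, 16 and 9 at a fold over 2, and 360 and 361 with no fold limit, where fewer features or another limit were used by construction. With ratios made anew by normexp and loess and no replicate block, an alternative chosen after seeing the data, they were 13 and 9; the cause was not tested. Leaving out 1 array gave 32 to 48 positive and 21 to 48 negative calls, the 48 negative ones without replicate b of the deletion. Without the replicate block alone the counts were 42 and 27, and the truncation, deletion, control and direct mutant comparisons stayed within 1.5 times their counts. Of the 71 calls, 49 held under each of 8 settings: no block, normexp and loess, print-tip loess, median centring, centring on added RNA, medians of spots, trend and robust eBayes, and the replicate differences against 0. The brighter features are not among these 8, nor is the fit with normexp and no block, which kept 16 of the 46 calls of genes named by the rule. These 46 genes kept their sign in every setting in which they were fitted, but 25 of them were among the brighter features, and the others have no value there. Signs turned in uncalled genes: EPL1 was 0.013 with normexp, with or without the block, GPM1 0.175 with the same settings and 0.08 with print-tip loess, and RPL41A 0.011 with print-tip loess. With 1 array left out, the difference of effects of EAF7 ranged from -0.01 (without replicate b of the deletion) to 0.104. The difference of effects of TRA1 ranged from -0.181 to 0.089, and was positive without replicate a of the deletion (0.086) or of Eaf1 1:982 (0.089). Of 2356 values of single genes under alternatives, 2162 kept direction and side of the threshold, 136 lost the call, 49 gained one and 9 turned sign. The number of arrays limits small differences. Replicates of the controls correlated by 0.678 and 0.703, but r also depends on how far a strain lies from the pool. Whether the controls were less precise than the mutants was not tested.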
